A study of Rattus norvegicus with 12 samples.

Results

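The 6 genes described here belong to the cellular defence against oxidative stress and were followed through the CA1 pyramidal cell layer of rats with chronic epilepsy. They were listed by name for their known function, at a time when earlier results of these data were known, and are 6 of the 32662 Ensembl identifiers in each count table: Hspb1 (ENSRNOG00000023546), Hmox1 (ENSRNOG00000014117), Nqo1 (ENSRNOG00000012772), Sod1 (ENSRNOG00000002115), Sod2 (ENSRNOG00000019048) and Cat (ENSRNOG00000008364). All 6 had a row in every table. The symbols are those given with the member list. The gene table used here carries no Ensembl identifiers, so that pairing was not checked, and further genes of the pathway and cell type markers are not analysed here.

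Cells limit oxidative damage in layers. The superoxide dismutases SOD1, mainly in the cytosol, and SOD2, in the mitochondrial matrix, turn superoxide into hydrogen peroxide, which catalase, the product of Cat, breaks down to water and oxygen. HMOX1 (heme oxygenase 1) degrades heme, and NQO1 reduces quinones in a step that avoids radical intermediates. Both are textbook targets of the transcription factor NRF2, which is freed from its inhibitor KEAP1 under oxidative or electrophilic stress. HSPB1 (HSP25 or HSP27) is a small heat shock protein that binds unfolding proteins and is induced through heat shock factors. In brain, HMOX1 and HSPB1 are known as stress-inducible proteins of glia as well as neurons.

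The rats were adult male Wistar animals, labelled as 45 to 50 days old and 180 to 200 g. Epileptic rats had received kainate, which activates a class of glutamate receptors, at 5 mg/kg each hour by intraperitoneal injection until status epilepticus, continuous seizures of over 30 min, then diazepam at 4 mg/kg, and were sampled 6 to 8 weeks later. Control rats had received saline or DMSO as vehicle and showed no seizures. Seizures of epileptic rats were noticed on handling, or recorded in some of them. Dextrose and an enriched diet followed the status, and controls were treated in a like way. From 20 µm sections, the superficial and the deep sublayer of the CA1 pyramidal cell layer were laser-microdissected from 3 epileptic and 3 control animals, which gave 12 libraries in 4 groups of 3. The animals of the 2 conditions are different rats although both are numbered 1 to 3.

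The 6 epileptic libraries held 20623196 to 25893962 gene counts and the 6 control libraries 16135358 to 19550582. Levels below are in CPM, gene counts per library brought to a common size by the trimmed mean of M-values (TMM), which takes most genes as unchanged. Epileptic animals 2 and 3 stood apart in library make-up. The share of alignments outside annotated exons was 25.3 and 25.6% in their superficial and 26.7 and 22.3% in their deep libraries. It was 37.7 and 43.0% in the superficial and deep library of epileptic animal 1, against 35.8 to 44.0% in the control libraries. In tissue of mixed cells, more cells of a type and more RNA per cell cannot be told apart, and the libraries' cell make-up was not tested.

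Hspb1 had the widest range of the 6 genes as a ratio of highest to lowest level, and its high levels lay in epileptic animals 2 and 3. In superficial CA1 it had 0.791, 3.35 and 13.0 CPM in epileptic animals 1, 2 and 3, against 0.479, 0.323 and 0.700 CPM in control animals 1, 2 and 3. In deep CA1 the values were 0.429, 1.78 and 7.62 CPM in epileptic animals and 0.740, 0.316 and 0.469 CPM in control animals. The superficial groups did not overlap, while in deep CA1 epileptic animal 1 lay inside the control range. Relative to the control mean of the sublayer, animal 3 stood at 26.0-fold in superficial and 15.0-fold in deep CA1, animal 2 at 6.70-fold and 3.50-fold, and animal 1 at 1.58-fold and 0.844-fold. In superficial CA1 the ratio of animal 3 was as high as or higher than that of 99.7% of the identifiers tested, and in deep CA1 of 99.8%.

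The low end of Hspb1 rested on few reads. The superficial library of epileptic animal 1 held 17 reads, with an exact 95% Poisson interval of 0.461 to 1.27 CPM, against 13 reads and 0.373 to 1.20 CPM in the superficial library of control animal 3. The gap between the superficial groups is therefore within counting error for these libraries, and intervals cover counting error only. In epileptic animals 2 and 3 the superficial counts were 82 and 278 reads, with intervals of 2.67 to 4.16 and 11.5 to 14.7 CPM, clear of every control. In the deep fit Hspb1 met the minimum level of 0.507 CPM in 2 epileptic libraries and 1 control library, so that it entered the test largely through the animals in which it was high.

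**Figure D1:**
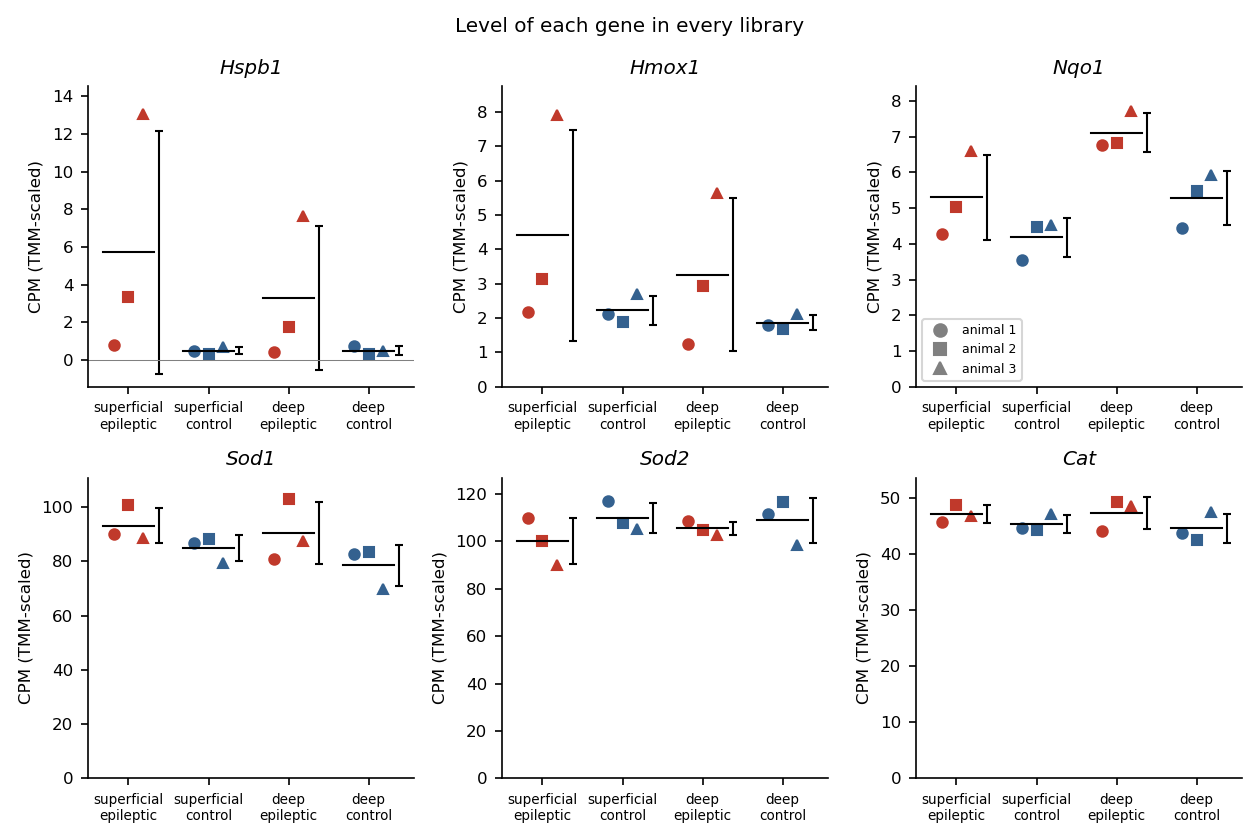
TMM-scaled CPM (y axes from 0, or just below it for Hspb1) of the 6 genes in each library, by sublayer and condition, with the animal as symbol; horizontal lines are means of 3 animals and bars beside them 1 SD. Hspb1 and Hmox1 spread widely among epileptic animals and lie highest in animal 3, whereas Sod1, Sod2 and Cat stay close together.

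The group difference of Hspb1 was large but did not pass the test over all identifiers. Epileptic animals averaged 5.72 ± 6.45 CPM and control animals 0.501 ± 0.189 CPM in superficial CA1 (SD, n = 3 each; log2 fold change 3.54, SE 1.10, adjusted p = 0.207, edgeR's quasi-likelihood test). In deep CA1 they averaged 3.28 ± 3.82 and 0.509 ± 0.215 CPM (SD, n = 3 each; log2 fold change 2.66, SE 0.95, adjusted p = 0.288). Unadjusted, the p-values were 0.0180 and 0.0223. Single animals decided both values. Without epileptic animal 1 Hspb1 passed, with log2 fold changes of 4.06 in superficial (adjusted p = 0.0293) and 3.20 in deep CA1 (adjusted p = 0.0366), in fits that called 9.96% and 3.82% of all identifiers. Without epileptic animal 3 they were 2.06 (adjusted p = 0.139) and 1.11 (adjusted p = 0.451). DESeq2 called Hspb1 in both sublayers, at 3.56 (adjusted p = 0.000949) and 2.70 (adjusted p = 0.0376), and called 6.18% and 2.64% of identifiers. Over all alternatives the adjusted p of Hspb1 ranged from 0.000949 to 0.999 in superficial and from 0.0366 to 0.911 in deep CA1.

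The promoter of Hspb1 is shown because this gene had the largest fold changes, with that of Sod1, whose level varied little, for comparison. Both come from RefSeq (build GRCr8), matched by symbol, and run from 250 bases before to 50 after the annotated start. Of the 6 genes 5 matched, and Hmox1 has no entry. The Hspb1 sequence is chr12:26432252-26432551 on the minus strand and the Sod1 sequence chr11:42942573-42942872 on the plus strand. The counts were made on another build, Rnor_6.0. Capitals mark the 8-base heat shock element core GAANNTTC, which reads the same on both strands.
Hspb1: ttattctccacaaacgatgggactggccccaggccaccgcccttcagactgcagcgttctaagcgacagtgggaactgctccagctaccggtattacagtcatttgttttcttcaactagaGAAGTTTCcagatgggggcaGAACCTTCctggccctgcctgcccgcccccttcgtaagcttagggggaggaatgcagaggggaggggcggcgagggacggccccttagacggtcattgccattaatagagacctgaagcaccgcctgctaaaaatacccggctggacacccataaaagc
Sod1: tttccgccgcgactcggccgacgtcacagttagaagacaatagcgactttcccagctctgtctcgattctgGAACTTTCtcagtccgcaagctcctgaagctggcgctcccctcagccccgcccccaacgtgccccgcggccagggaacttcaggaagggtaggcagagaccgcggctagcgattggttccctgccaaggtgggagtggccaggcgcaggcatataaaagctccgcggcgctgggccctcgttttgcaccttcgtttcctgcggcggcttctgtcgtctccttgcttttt

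Hspb1 held 2 matches, starting at bases 122 and 142 of its 300, and Sod1 held 1, starting at base 72. The same letters occur in 8.59% of the 33469 promoters of 300 bases in the table. The antioxidant response element core TGACNNNGC, searched on both strands, occurs in 12.1% of them. Among the 5 promoters it was present in that of Sod2 only, as GCAGGGTCA on the printed strand, starting at base 216, and the 2 motifs did not overlap in any of the 5. Nqo1 and Cat held neither set of letters in this window. These are matches of letters, not sites shown to be bound.

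Among epileptic animals Hmox1 followed the same order as Hspb1, over a smaller fold range. In superficial CA1 it had 2.19, 3.15 and 7.92 CPM in epileptic animals 1, 2 and 3, against 2.11, 1.88 and 2.69 CPM in control animals. In deep CA1 it had 1.24, 2.93 and 5.64 CPM in epileptic animals and 1.80, 1.68 and 2.11 CPM in control animals. Epileptic animals 2 and 3 lay above every control in both sublayers, while animal 1 lay within the controls in superficial and below all of them in deep CA1, so the groups overlapped. The counting intervals of epileptic animal 2, on 77 superficial and 61 deep reads, overlapped those of every control of the same sublayer. That of epileptic animal 1 in deep CA1, on 26 reads, overlapped those of all deep controls. Animal 3 reached 3.55-fold of the control mean in superficial and 3.02-fold in deep CA1, and animal 2 reached 1.41-fold and 1.57-fold.

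The group means of Hmox1 were 4.42 ± 3.07 CPM in epileptic and 2.23 ± 0.417 CPM in control animals in superficial CA1 (SD, n = 3 each; log2 fold change 1.02, SE 0.49, adjusted p = 0.298). In deep CA1 they were 3.27 ± 2.22 and 1.86 ± 0.222 CPM (SD, n = 3 each; log2 fold change 0.81, SE 0.47, adjusted p = 0.482). Neither difference passed edgeR's quasi-likelihood test. Without epileptic animal 3 the log2 fold changes were 0.28 (adjusted p = 0.677) and 0.16 (adjusted p = 0.885), and without epileptic animal 1 they were 1.35 (adjusted p = 0.0757) and 1.21 (adjusted p = 0.0709).

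**Figure D2:**
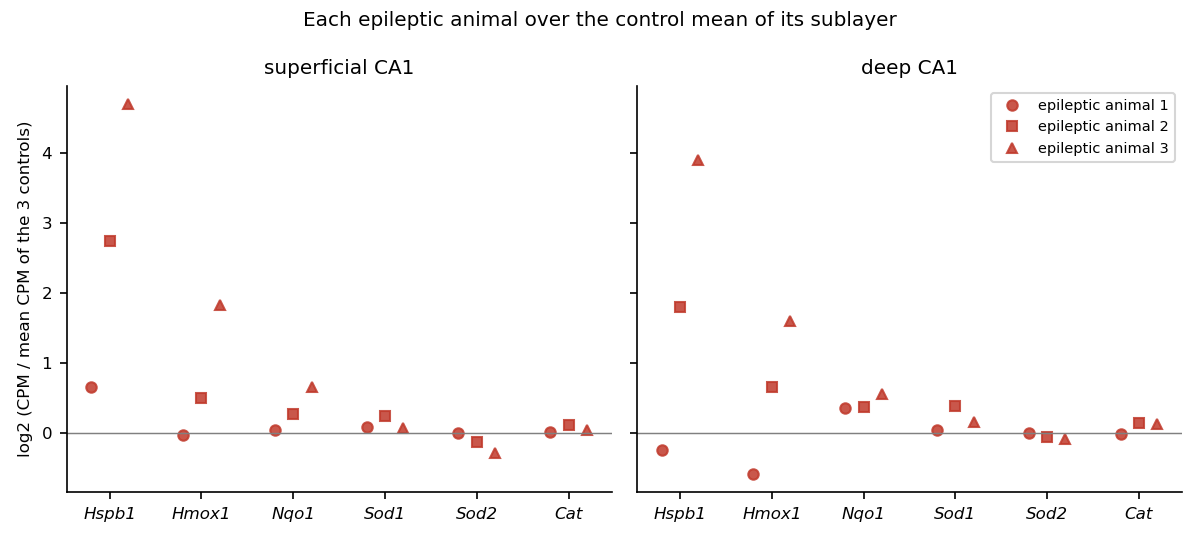
Level of each gene in each epileptic animal relative to the mean of the 3 controls of the same sublayer, as log2 ratio (y axis; 0 is the control mean); symbols are animals. Hspb1 and Hmox1 are highest in animal 3 and lowest in animal 1 in both sublayers; in animals 2 and 3 both lie farther from 0 than the other 4 genes.

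Nqo1 was more even among epileptic animals than Hspb1 or Hmox1. In superficial CA1 it had 4.28, 5.03 and 6.61 CPM in epileptic animals 1, 2 and 3, against 3.55, 4.47 and 4.52 CPM in control animals. In deep CA1 the values were 6.77, 6.82 and 7.73 CPM in epileptic and 4.44, 5.47 and 5.93 CPM in control animals. Every deep epileptic library lay above every deep control library, including animal 1, whereas the superficial groups overlapped. The counting intervals of all deep epileptic libraries, which started at 5.70, 5.75 and 6.52 CPM, lay above that of deep control animal 1. They overlapped those of deep control animals 2 and 3, which reached 6.63 and 7.20 CPM. The log2 fold change was 0.37 in superficial (SE 0.23, adjusted p = 0.389) and 0.43 in deep CA1 (SE 0.17, unadjusted p = 0.0342, adjusted p = 0.327), and neither passed edgeR's quasi-likelihood test. Scaled by total gene counts instead of TMM, the deep groups overlapped and the log2 fold change was 0.27 (adjusted p = 0.382). With sample quality weights in limma-voom the deep difference passed at 0.50 (adjusted p = 0.0389), in a fit that called 14.9% of all identifiers.

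The dismutases and catalase differed little between conditions. Sod1 had 90.2, 101 and 88.8 CPM in superficial libraries of epileptic animals 1, 2 and 3, against 87.0, 88.2 and 79.5 CPM in control animals. In deep CA1 Sod1 had 81.1, 103 and 87.4 CPM in epileptic animals and 82.6, 83.3 and 69.8 CPM in control animals. The lowest superficial epileptic value lay less than 1 CPM above the highest control, animal 2 was highest in both sublayers, and the deep groups overlapped. The log2 fold changes were 0.16 (SE 0.08, adjusted p = 0.327) in superficial and 0.21 (SE 0.12, adjusted p = 0.465) in deep CA1 by edgeR's quasi-likelihood test. They shrank to 0.04 in both with total gene counts as the scale, and the superficial groups then overlapped. The deep difference passed in limma-voom with sample quality weights, at 0.29 (adjusted p = 0.0459), in a fit that called 14.9% of all identifiers.

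Sod2 had 110, 100 and 90.2 CPM in superficial libraries of epileptic animals 1, 2 and 3, against 117, 108 and 105 CPM in control animals. In deep CA1 it had 109, 105 and 103 CPM in epileptic and 111, 117 and 98.4 CPM in control animals. Of the 3 superficial epileptic values 2 lay below all controls, and the deep values lay within the control range. The log2 fold change was -0.11 (SE 0.09, adjusted p = 0.510) in superficial and -0.04 (SE 0.09, adjusted p = 0.867) in deep CA1, which did not pass edgeR's quasi-likelihood test. With total gene counts as the scale the same test gave -0.23 (adjusted p = 0.296) and -0.20 (adjusted p = 0.324). On that scale 2 of 3 epileptic values lay below all controls in each sublayer. The reference lists a pseudogene of Sod2, whose reads may not be separable from those of the gene itself.

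Cat varied little. It had 45.8, 48.9 and 46.8 CPM in superficial and 44.1, 49.4 and 48.7 CPM in deep libraries of epileptic animals 1, 2 and 3. The control libraries had 44.8, 44.3 and 47.3 CPM in superficial and 43.8, 42.6 and 47.5 CPM in deep CA1. The groups overlapped in both sublayers. The log2 fold change was 0.08 (SE 0.08, adjusted p = 0.598) in superficial and 0.09 (SE 0.10, adjusted p = 0.731) in deep CA1, and with total gene counts as the scale it was -0.05 and -0.08, so it has no stable direction.

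Counted together, 0 of the 6 genes passed at an adjusted p below 0.05 in either sublayer by edgeR's quasi-likelihood test, which called 0.0140% of 14321 identifiers in superficial and 0 of 14261 in deep CA1. Blocked by replicate number, the deep fit called 1.68% of identifiers and again 0 of the 6. DESeq2 called 1 of the 6, Hspb1, in each sublayer, and called 6.18% of identifiers in superficial and 2.64% in deep CA1. At an unadjusted p below 0.05 there was 1 of 6 in superficial CA1 (Hspb1), where 18.9% of all identifiers lay, and 2 of 6 in deep CA1 (Hspb1 and Nqo1), where 13.7% lay. Epileptic values lay above all controls for 2 of 6 genes in superficial CA1 (Hspb1 and Sod1) and for 1 of 6 in deep CA1 (Nqo1), against 9.80% and 8.85% of all identifiers. Of the 6 log2 fold changes 5 were above 0 in each sublayer, as were 51.0% of all identifiers in superficial and 50.2% in deep CA1. Their median was 0.27 in superficial and 0.32 in deep CA1, against 0.01 and 0.00 over all identifiers. Scaled by total gene counts, the median over all identifiers was -0.12 and -0.16.

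**Figure D3:**
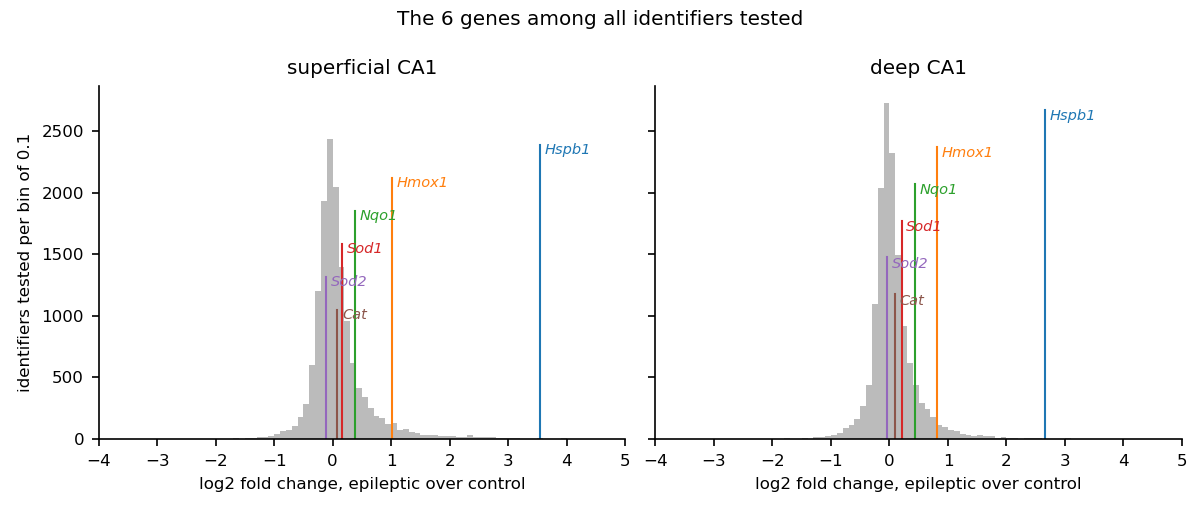
Log2 fold change, epileptic over control (x axis), of all identifiers tested (grey bars, number per bin) with the 6 genes as lines of arbitrary height. Hspb1 lies at 3.54 in superficial and 2.66 in deep CA1, far in the upper tail, and Hmox1 at 1.02 and 0.81, while Sod1, Sod2 and Cat lie in the central mass.

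The spread between animals differed widely among the genes. The SD of log2 CPM of Hspb1 was 1.94 among superficial and 1.94 among deep epileptic libraries, against 0.46 and 0.51 among superficial and deep control libraries. For Hmox1 it was 0.93 and 1.05 among epileptic, against 0.25 and 0.16 among control libraries. The median over 14791 identifiers was 0.20 and 0.21 in epileptic and 0.12 and 0.13 in control groups. Cat had a SD of 0.05 and 0.09 among epileptic libraries, at or below which lay 4.90% and 14.6% of identifiers. These spreads are over 3 animals and were not tested.

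The highest levels of Hspb1 and Hmox1 lay in libraries that also stood apart in make-up. The 4 libraries of epileptic animals 2 and 3, with 22.3 to 26.7% of alignments outside exons, held the 4 highest values of both genes. Among these libraries, superficial Hspb1 was 3.35 and 13.0 CPM at shares of 25.3 and 25.6%. Deep Hspb1 was 1.78 and 7.62 CPM at shares of 26.7 and 22.3%. Whether level and share go together within these libraries was not tested. Deep and superficial libraries of epileptic animal 1, with shares in the range of the controls, had Hspb1 and Hmox1 levels near those of the controls. With that share as a covariate, the epileptic-over-control log2 fold change of Hspb1 was 0.68 (adjusted p = 0.999) in superficial and -0.40 (adjusted p = 0.911) in deep CA1. That of Hmox1 was 0.04 (adjusted p = 0.999) and -0.59 (adjusted p = 0.643). For Nqo1 it was -0.01 (adjusted p = 0.999) in superficial and 0.34 (adjusted p = 0.631) in deep CA1. Share and condition overlap in animals 2 and 3, so this fit leaves little to compare, and what sets the share was not tested. The 4 libraries of epileptic animals 2 and 3 also had more alignments that were not unique (37.9 to 45.6%, against 25.2 to 34.8% elsewhere). In them the most abundant identifier held 18.7 to 22.8% of gene counts, against 8.24 to 16.6% elsewhere.

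**Figure D4:**
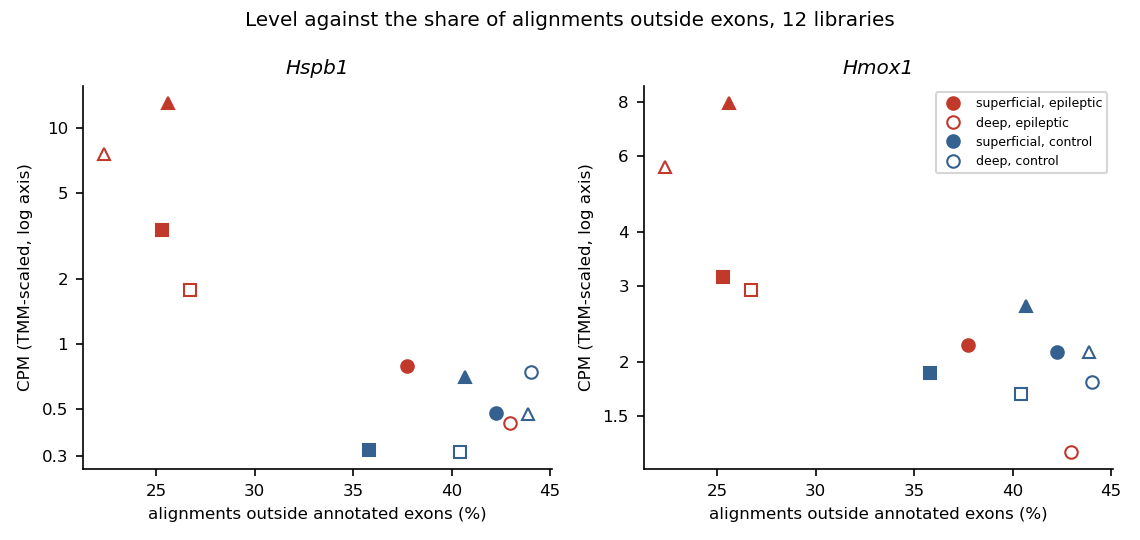
CPM of Hspb1 and Hmox1 (y axis, log scale) against the share of alignments outside annotated exons (x axis, percent) in the 12 libraries; filled symbols are superficial and open symbols deep libraries, circles, squares and triangles animals 1, 2 and 3. The 4 libraries of epileptic animals 2 and 3 lie apart at 22.3 to 26.7%, with the highest level of both genes.

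Within animals, Nqo1 differed between the sublayers and was lower in superficial CA1. The superficial-to-deep ratio of Nqo1 was 0.633, 0.737 and 0.855 in epileptic animals 1, 2 and 3, and 0.799, 0.817 and 0.763 in control animals. It was below 1 in 6 of 6 animals, as for 9.78% of all identifiers on the TMM scale. With total gene counts as the scale it was also below 1 in 6 of 6 animals. Over all 6 animals Nqo1 fell by 0.39 on the log2 scale in superficial relative to deep CA1 (log2 fold change -0.39, SE 0.10, adjusted p = 0.00978, edgeR's quasi-likelihood test with the animal as block). Within the same fit of all 12 libraries, the difference in epileptic rats passed narrowly (log2 fold change -0.44, SE 0.13, adjusted p = 0.0437). That in control rats did not (log2 fold change -0.34, SE 0.14, adjusted p = 0.159). The difference between these was -0.09 (SE 0.19, adjusted p = 0.969). The 6-animal call was kept when any 1 animal was left out (adjusted p = 0.00169 to 0.0468). It was lost in DESeq2 (-0.40, adjusted p = 0.0562, with 12.9% of identifiers called), with no block for the animal (-0.38, adjusted p = 0.201) and with the outside-exon share as a covariate (-0.29, adjusted p = 0.0864). The call in epileptic rats was lost without epileptic animal 1 or 2 (adjusted p = 0.210 and 0.178) and without control animal 1, 2 or 3 (adjusted p = 0.0701, 0.0603 and 0.0697). It was also lost with total gene counts as the scale (-0.35, adjusted p = 0.0749) and in DESeq2 (-0.44, adjusted p = 0.221). The 6 epileptic libraries fitted alone gave -0.45 (adjusted p = 0.106), and a fit with no block for the animal gave -0.42 (adjusted p = 0.662). In all, 9 of 15 alternatives lost this call.

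Hspb1 was higher in superficial than in deep CA1 of each epileptic rat, at 1.84-fold, 1.89-fold and 1.71-fold in animals 1, 2 and 3. The level of the gene in superficial CA1 spanned 0.791 to 13.0 CPM in the same animals. The ratio of animal 1 rests on 17 superficial and 9 deep reads, whose counting intervals of 0.461 to 1.27 and 0.196 to 0.814 CPM overlap. In control rats the ratios were 0.647, 1.02 and 1.49, on 6 to 14 reads a library. The difference in epileptic rats passed the test (log2 fold change 0.83, SE 0.18, adjusted p = 0.00870), and that in control rats did not (log2 fold change -0.05, SE 0.36, adjusted p = 0.949, edgeR's quasi-likelihood test). A direct test of the change in sublayer difference gave 0.88 (SE 0.40, unadjusted p = 0.0451, adjusted p = 0.743), so the conditions are not shown to differ. The call in epileptic rats was lost without epileptic animal 2 (0.79, adjusted p = 0.0826), in limma-voom with animals as random effects (0.87, adjusted p = 0.407) and with no block for the animal (0.81, adjusted p = 0.890). DESeq2 gave Hspb1 no adjusted p in epileptic rats.

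Hmox1 was likewise higher in superficial CA1 in 6 of 6 animals, which held for 11.4% of all identifiers. Its ratios were 1.77, 1.07 and 1.41 in epileptic animals 1, 2 and 3, and 1.17, 1.12 and 1.27 in control animals. The ratio of control animal 2 rests on 35 superficial and 32 deep reads. The log2 fold change over all 6 animals was 0.34 (SE 0.13, unadjusted p = 0.0226, adjusted p = 0.0865), which did not pass edgeR's quasi-likelihood test. It passed with total gene counts as the scale, at 0.39 (adjusted p = 0.0386), in a fit that called 27.2% of identifiers. By condition it was 0.43 (SE 0.17, adjusted p = 0.121) in epileptic and 0.24 (SE 0.20, adjusted p = 0.525) in control rats. With total gene counts as the scale, Hmox1 also passed in epileptic rats (0.52, adjusted p = 0.0466), where 17.7% of identifiers were called.

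Sod1, Sod2 and Cat had nearly equal levels in the sublayers. Their superficial-to-deep ratios lay between 0.877 and 1.11 in epileptic and between 0.921 and 1.14 in control animals. The log2 fold changes over 6 animals were 0.08 for Sod1 (SE 0.04, adjusted p = 0.197), -0.04 for Sod2 (SE 0.04, adjusted p = 0.570) and 0.01 for Cat (SE 0.04, adjusted p = 0.949), by edgeR's quasi-likelihood test. Sod1 passed with total gene counts as the scale, at 0.13 (adjusted p = 0.0200), a scale on which the median of all identifiers was 0.07.

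**Figure D5:**
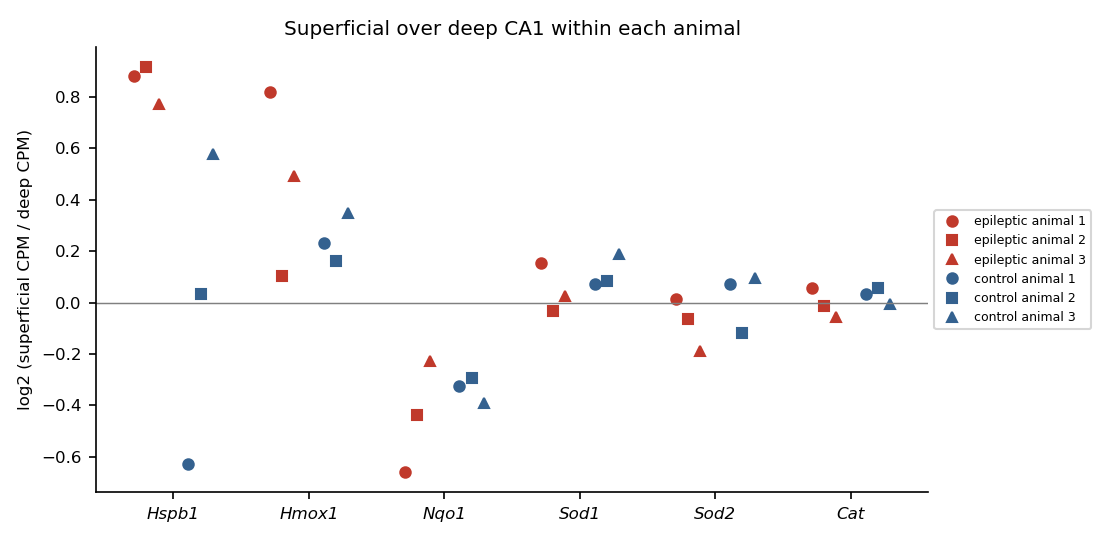
Log2 ratio of the superficial to the deep level within each animal (y axis; 0 is equality) for the 6 genes, with epileptic animals left of control animals and the animal as symbol. Nqo1 lies below 0 and Hmox1 above 0 in all 6 animals, and Hspb1 above 0 in the 3 epileptic animals.

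Across the sublayer tests, 2 of the 6 genes (Hspb1 and Nqo1) were called in epileptic rats, where 10% of 14791 identifiers were called; 3 of 6 (also Hmox1) had an unadjusted p below 0.05, against 25.9%. In control rats 0 of 6 were called, against 8.44% of identifiers, with 1 of 6 (Nqo1) at an unadjusted p below 0.05, as were 22.8% of all. DESeq2 called 0 of the 5 with an adjusted p in epileptic rats and 0 of 6 in control rats, against 5.54% of identifiers in each. Over all 6 animals 1 of 6 was called (Nqo1), against 20.4% of identifiers, and 2 of 6 (also Hmox1) had an unadjusted p below 0.05, against 33.7%. The test of a changed sublayer difference called 0 of 6 and 0 of all identifiers. At an unadjusted p below 0.05 it had 1 of 6 (Hspb1), against 6.60% of all, and DESeq2 called 0 of the 6 and 0.0135% of identifiers.

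The likeness of patterns was described by Pearson's r of log2 CPM over the 12 libraries, which share animals and fall into separate clusters, so that it largely reflects epileptic animals 2 and 3. Hspb1 and Hmox1 had r = 0.94 over all 12 libraries, 0.98 over the 6 epileptic and 0.53 over the 6 control libraries. Among 14791 identifiers 438 had r above 0.9 with Hspb1 and 208 with Hmox1, against 62 for Nqo1, 42 for Sod1, 34 for Sod2 and 1 for Cat. The nearest identifier was ENSRNOG00000011781 for Hspb1 (r = 0.990) and ENSRNOG00000005378 for Hmox1 (r = 0.970). For Sod1 it was ENSRNOG00000000064 (r = 0.956) and for Cat ENSRNOG00000019681 (r = 0.915). The files do not pair these identifiers with names. The r of Sod2 was -0.74 with Hmox1 and -0.73 with Hspb1 over all 12 libraries. It was -0.83 and -0.86 over the 6 epileptic and -0.47 and -0.20 over the 6 control libraries.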

How the data were processed

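The authors deposited unnormalized read counts per gene, with a separate table for every library. Per the submitters' processing notes, the build was Rnor_6.0 and the tools included HTSeq 0.6.1, STAR 2.5.0c, SAMtools 0.1.19 and FastQC 0.11.3. No source used here gives the strand setting, so overlapping and antisense genes may share reads. The 5 summary tallies of each table entered neither library sizes nor tests; genes held 28.6 to 35.1% of all alignments tallied.

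Tests ran in edgeR 4.0.16 (R 4.3.3): filterByExpr (minimum count 10, minimum total 15), TMM scaling, the robust quasi-likelihood test and Benjamini-Hochberg adjustment over all identifiers, at 0.05. Epilepsy was tested in the 6 libraries of a sublayer, and sublayers in a fit of all 12 libraries that includes the animal. The SE is the absolute log2 fold change divided by the square root of the F statistic. Alternatives used DESeq2 1.42.0 and limma 3.58.1. No replicates were duplicates (chi-square per identifier 7.29 to 124 between libraries of a group).

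Deep and superficial libraries of 1 number deviated together (r = 0.316 to 0.770) and come from the same brains per the labels. For epileptic and control libraries of 1 number r was 0.104 to 0.245 in deep and 0.00250 to 0.212 in superficial CA1. The deep and superficial ranges overlap each other, and both lie below that of libraries from the same brain. The number links different rats, so the epilepsy tests had no block. A fit blocked by replicate number is given only as an alternative. In epileptic against control rats, the p-values thus rest on how far animals of the same condition differ from each other. The sublayer fit takes out the level of each animal. Its p-values rest on how far the superficial-to-deep difference varies among animals of the same condition, over both conditions together.

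Named genes are the 6 members, and for likeness of pattern the nearest identifier of Hspb1, Hmox1, Sod1 and Cat, since no symbols could be paired. The 8 fixed lists of other genes (oxidative defence, heat shock and 6 cell types; 117 entries) were therefore not analysed here. Members, lists and tests were chosen with earlier results of these data known.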

Additional observations from a re-analysis of the deposited data

How the results depend on the processing

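Of 514 alternative values for 36 results, 461 kept direction and side of the threshold, 15 lost a call, 9 gained one and 29 changed sign; scaling by total gene counts was added after seeing the data. Few reads limit Hspb1 in controls, and 3 animals a condition limit all epilepsy tests.

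For the number of the 6 genes called between epileptic and control rats, the main fits gave 0 in each sublayer. DESeq2 gave 1 in superficial and 1 in deep CA1, with 885 and 376 identifiers called. With quality weights, limma-voom gave 2 in deep CA1, with 2125 identifiers called. Leaving out 1 animal gave 0 to 1 in superficial and 0 to 1 in deep CA1. The fits that left out 1 animal called 0 to 1443 identifiers in superficial and 0 to 552 in deep CA1. The replicate block between conditions gave 0 in both, with 25 identifiers called in superficial and 239 in deep CA1. For the sublayer test in epileptic rats, 2 were called, with 1484 of 14791 identifiers. DESeq2 gave 0, with 820 identifiers called, and no block for the animal gave 0, with only 5 called. Random animal effects gave 1, with 889 called, and the 6 libraries alone gave 1, with 727 of 14454. Leaving out 1 animal gave 0 to 2, with 536 to 2217 identifiers called. Over 6 animals, 1 was called, with 3010 identifiers. DESeq2 gave 0, with 1910 identifiers called, no block for the animal 0, with 265, and the outside-exon covariate 0, with 2082. Total gene counts gave 3, with 27.2% of all identifiers called. In epileptic rats total gene counts also gave 2, with Hmox1 in place of Nqo1. The cause was not tested.

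Signs that changed belonged mostly to values near 0. In epileptic against control rats, total gene counts gave Cat -0.045 in superficial and -0.077 in deep CA1. The covariate gave Nqo1 -0.015 and Sod2 0.029 in superficial CA1, and Hmox1 -0.59 and Hspb1 -0.40 in deep CA1. Leaving out 1 animal gave deep Sod2 -0.11 to 0.0024. In the sublayer test of epileptic rats, quality weights gave Sod1 -0.0019, and total gene counts gave Sod2 0.0017 and Cat 0.075; leaving out 1 animal gave Sod1 -0.0083 to 0.089 and Cat -0.0385 to 0.012. In control rats, Sod2 was -0.0052 with RLE size factors, -0.0052 in DESeq2, -0.039 with the covariate and -0.0011 in the 6 libraries alone, and Cat was -0.0196 with the covariate; leaving out 1 animal gave Sod2 -0.026 to 0.072 and Hspb1 -0.39 to 0.35. Over 6 animals, Cat was -0.00046 with RLE size factors, -0.00044 in DESeq2, -0.0036 with quality weights and -0.021 with the covariate, and Sod2 was 0.018 with total gene counts; leaving out 1 animal gave Cat -0.012 to 0.017. For the change in sublayer difference, total gene counts gave Cat 0.029, and leaving out 1 animal gave Nqo1 -0.20 to 0.014. Of 24 group means in CPM, 3 moved by more than 1 SD with total gene counts: Sod2 in deep epileptic (98.2) and Cat in deep epileptic (44.0) and superficial control libraries (47.9).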

Other observations

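Ratios of counts within a library do not depend on how libraries are scaled; the pairs below were chosen after their values were seen and were not tested. Sod1 and Sod2, the cytosolic and the mitochondrial dismutase, had a ratio of counts of 0.822, 1.00 and 0.985 in superficial libraries of epileptic animals 1, 2 and 3, against 0.743, 0.820 and 0.755 in control animals. In deep libraries the ratio of Sod1 to Sod2 was 0.747, 0.982 and 0.849 in epileptic and 0.741, 0.714 and 0.709 in control animals. Epileptic animal 1 lay within 0.01 of the highest control in each sublayer. Counts are not per length, so the ratio compares libraries and not the amounts of the genes.

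The ratio of Hspb1 to Hmox1 counts was 0.362, 1.065 and 1.65 in superficial and 0.346, 0.607 and 1.35 in deep libraries of epileptic animals 1, 2 and 3. In control animals it was 0.227, 0.171 and 0.260 in superficial and 0.412, 0.188 and 0.222 in deep libraries. In deep CA1 epileptic animal 1 lay below control animal 1.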
